A study of Homo sapiens with 12 samples.

Results

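REST, a transcriptional repressor, and 7 markers of the neuroendocrine state (ENO2, CHGA, CHGB, SYP, NCAM1, DLL3 and INSM1) were followed in RNA from LNCaP prostate cancer cells. The 8 genes were listed by name, with earlier results of these data known but by no threshold on their values, and were looked up in a count table of 36137 gene symbols. A row was found for 7 of the 8, and INSM1, a zinc-finger factor of endocrine precursors, was not analysed here. Of those 7, 4 (REST, ENO2, SYP and DLL3) lay above a counting floor of 3 counts in all 12 libraries. The same 4 genes passed the filter on low counts and were among the 18468 genes tested.

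LNCaP is an androgen-responsive line from a lymph node metastasis of prostate cancer. Its cells received PXN siRNA, directed at the focal adhesion adaptor paxillin, or a non-specific siRNA for 48 h. They were then kept without serum for 12 h and given, for 24 h, 2.5 nM of the androgen dihydrotestosterone (DHT) or the ethanol vehicle. The groups, of 3 libraries each, were PXN siRNA with DHT, non-specific siRNA with DHT, PXN siRNA with vehicle and non-specific siRNA with vehicle. All of them had thus been transfected and starved, and the sources used here state neither how many siRNAs were used nor their sequence. The labels do not say whether the replicates came from separate cultures. The p-values therefore describe the spread among these libraries, and that spread may be technical.

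REST binds a DNA element known as RE1 and, through co-repressors such as RCOR1 and the histone demethylase KDM1A, keeps neuronal and endocrine genes silent in other cell types. Some prostate adenocarcinomas under androgen deprivation lose androgen receptor activity and take on neuroendocrine features. Chromogranins, synaptophysin, neuron-specific enolase, NCAM1, INSM1 and the Notch ligand DLL3 are used to recognise that state.

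Promoter windows from RefSeq (build GRCh38.p14) were available for REST, ENO2, CHGA and SYP. The windows of REST, of ENO2 and of CHGA are printed because they belong to the repressor, to the marker with the largest difference and to a marker near the floor. All 3 lie on the plus strand and run 5′ to 3′ around an annotated start, and capitals mark a match to a motif searched on both strands. For REST, at chr4:56908660-56908959, the capitals mark GGACAGC, the right-hand part of RE1. A second REST window, at chr4:56907650-56907949, is not printed and held no match to any motif searched. For CHGA, at chr14:92922900-92923199, they mark TGACGTCA, the cyclic AMP response element. For ENO2, at chr12:6914330-6914629, no letters are in capitals.
REST: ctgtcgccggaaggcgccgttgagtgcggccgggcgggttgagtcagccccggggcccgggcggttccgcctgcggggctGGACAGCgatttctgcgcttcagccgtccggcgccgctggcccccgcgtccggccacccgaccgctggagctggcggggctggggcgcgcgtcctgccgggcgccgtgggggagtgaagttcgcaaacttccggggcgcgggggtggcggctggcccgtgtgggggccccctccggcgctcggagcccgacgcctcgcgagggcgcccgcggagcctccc
ENO2: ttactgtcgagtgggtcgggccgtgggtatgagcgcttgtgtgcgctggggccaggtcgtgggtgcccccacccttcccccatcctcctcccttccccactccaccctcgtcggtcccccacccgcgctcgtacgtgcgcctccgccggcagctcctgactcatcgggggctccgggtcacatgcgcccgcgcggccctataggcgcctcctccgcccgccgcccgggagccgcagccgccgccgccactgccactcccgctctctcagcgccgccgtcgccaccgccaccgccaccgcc
CHGA: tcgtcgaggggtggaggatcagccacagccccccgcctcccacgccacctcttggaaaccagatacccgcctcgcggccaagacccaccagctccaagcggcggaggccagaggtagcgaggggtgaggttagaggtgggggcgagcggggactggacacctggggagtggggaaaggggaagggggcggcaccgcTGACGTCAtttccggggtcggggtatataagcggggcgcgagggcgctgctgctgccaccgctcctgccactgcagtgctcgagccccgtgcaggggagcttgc
The other motifs searched were CAGCACC, the left-hand part of RE1, AGAACA, a part of the androgen response element, and TATAAA, the TATA box. Among all 35116 RefSeq windows of this length, GGACAGC was found in 6.03%, TGACGTCA in 1.85%, CAGCACC in 7.75%, AGAACA in 14.8% and TATAAA in 11.5%. The motifs do not overlap one another in the printed windows. In REST the match began at position -170 from the start and in CHGA at -54. These matches are a description of letters and not of binding. The ENO2 window holds 38 CpG pairs and the printed REST window 46, against 24 in CHGA and a median of 14 over all windows.

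Libraries held 34321000 to 38633456 counts, and values in CPM, the usual unit of counts relative to the library total, are on library sizes scaled by edgeR's TMM, so that 1 CPM stood for 33.65 to 38.2 counts. PXN, the target of the siRNA, averaged 18.2 ± 1.7 CPM with PXN siRNA and DHT and 106 ± 7.0 CPM with non-specific siRNA and DHT, and 17.1 ± 3.6 CPM with PXN siRNA and vehicle and 108 ± 2.9 CPM with non-specific siRNA and vehicle (SD, n = 3 each). KLK3, the androgen-induced gene for prostate-specific antigen, rose with DHT by 1.78 ± 0.23 (log2 fold change ± SE) under non-specific siRNA, with an adjusted p of 0.000392. That value, like all later ones, is from the quasi-likelihood test of edgeR with Benjamini-Hochberg adjustment over all tested genes. The 10 luminal prostate markers summed to 4676 to 4965 CPM with PXN siRNA and DHT against 7578 to 7740 CPM with non-specific siRNA and DHT, and to 4219.8 to 4611 CPM with PXN siRNA and vehicle against 5465 to 6118 CPM with non-specific siRNA and vehicle. KLK3 weighed heavily on the sums with DHT, with group means of 584 CPM (PXN siRNA) and 2235 CPM (non-specific siRNA). After PXN siRNA 0 of the 10 markers were higher and 6 lower under DHT, and 1 higher and 7 lower under vehicle. Over all tested genes 25.0% were higher and 26.7% lower under DHT, and 23.9% and 26.3% under vehicle. Of 12 markers of basal, stromal, endothelial and immune cells, 7 averaged under 1 CPM in every group, with KRT5 and TP63 at 0 in at least 1 group, and the list summed to 62.0 to 74.5 CPM in PXN siRNA libraries and 45.7 to 55.2 CPM in non-specific ones. Of the 7 of these markers tested, 2 were higher and 3 lower under DHT, and 2 higher and 2 lower under vehicle. The shares over all tested genes were again 25.0% higher and 26.7% lower under DHT, and 23.9% and 26.3% under vehicle. The abundant COL1A1, and TAGLN, were higher and COL3A1 and LUM lower in both. The call of TAGLN was lost in some alternatives. Over them its adjusted p ran from 9.12e-05 to 0.0524 under DHT and from 0.000443 to 0.126 under vehicle. LUM reached 10 counts in all libraries only with non-specific siRNA and vehicle (13 to 29 counts). KRT14, lower under DHT, did so only with non-specific siRNA and DHT (12 to 19 counts). Both entered the test through a group where they are high, so their place in the counts is no support. Their calls under DHT were lost in 3 (LUM) and 4 (KRT14) alternatives. Mitochondrially encoded genes took 8.13 to 8.95% of counts in PXN siRNA libraries and 4.69 to 7.55% in non-specific ones. The part of these differences in the results on REST and the markers was not tested.

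The markers were detected very unequally. Per kilobase of annotated exon, the scale used to compare genes, REST had a median of 11.6 CPM per kb over the 12 libraries (10.2 to 13.8) and ENO2 one of 10.5 (5.48 to 15.7). DLL3 had a median of 1.75 CPM per kb (0.822 to 2.28) and SYP one of 0.334 (0.221 to 0.524). The ranges of REST and ENO2 overlapped, while those of ENO2, DLL3 and SYP did not. NCAM1, CHGA and CHGB lay lower still, with medians of 0.0168, 0.00887 and 0 CPM per kb.

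**Figure D1:**
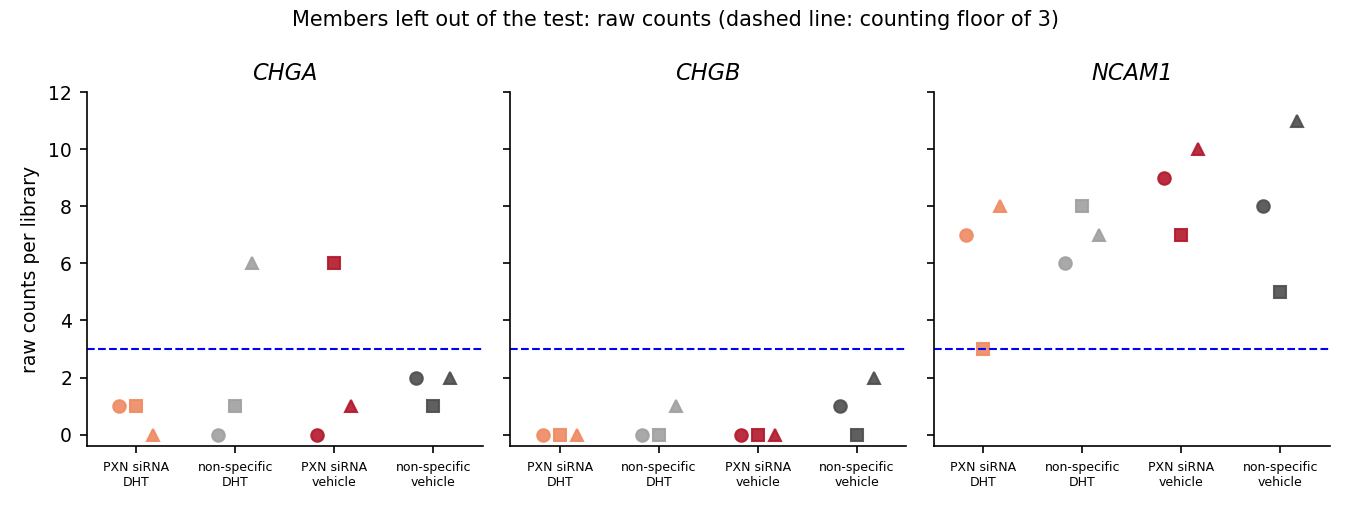
Raw counts of CHGA, CHGB and NCAM1, the genes left out of the test, in each library by group (circles, squares and triangles are replicates 1, 2 and 3), with the floor of 3 counts drawn as a dashed line. NCAM1 lies above the line in 11 libraries, CHGA in 2 and CHGB in 0.

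CHGA encodes chromogranin A, the core protein of dense secretory granules and the serum marker of neuroendocrine tumours. Its raw counts were 1, 1 and 0 with PXN siRNA and DHT, 0, 1 and 6 with non-specific siRNA and DHT, 0, 6 and 1 with PXN siRNA and vehicle, and 2, 1 and 2 with non-specific siRNA and vehicle. It passed the floor in 2 of 12 libraries, 1 with each siRNA, and its total over all libraries was 21 counts. CHGB, the related granin chromogranin B, had 0 counts in all 6 PXN siRNA libraries, 0, 0 and 1 counts with non-specific siRNA and DHT and 1, 0 and 2 counts with non-specific siRNA and vehicle. Its total was 4 counts, and no library passed the floor. A floor of 3 counts stood for 0.0784 to 0.0892 CPM, and this floor covers counting error only.

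NCAM1, the adhesion molecule also known as CD56, had 7, 3 and 8 counts with PXN siRNA and DHT and 6, 8 and 7 counts with non-specific siRNA and DHT. It had 9, 7 and 10 counts with PXN siRNA and vehicle and 8, 5 and 11 counts with non-specific siRNA and vehicle. The groups overlapped in both pairs, and the gene passed 3 counts in 11 of 12 libraries but 10 counts in only 1. In a fit without the filter on low counts, edgeR gave NCAM1 a log2 fold change of -0.29 for PXN siRNA under DHT (95% interval -1.36 to 0.78, adjusted p = 0.777) and of 0.01 under vehicle (-0.97 to 0.99, adjusted p = 1). In that fit no p under 0.05 after adjustment was obtained for NCAM1, CHGA or CHGB in any of the 5 contrasts. The intervals for NCAM1 do not exclude a moderate difference in either direction.

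Of the 4 tested genes, REST and ENO2 were higher after PXN knockdown with either treatment, DLL3 was lower with either, and SYP was lower under DHT. Under vehicle the value of SYP had the same sign but was not called. Under DHT all 4 passed an adjusted p of 0.05, 2 upward and 2 downward, among 51.8% of all tested genes that did so (25.0% upward and 26.7% downward). Under vehicle 3 passed, 2 upward and 1 downward, among 50.2% of all tested genes (23.9% upward and 26.3% downward). Scaled by the upper quartile, 60.7% of the called genes under DHT and 60.2% under vehicle were higher, against 48.3% and 47.7% here. The members' share was read against a knockdown that called about as many genes as it left uncalled. The median log2 fold change of the 4 genes was -0.16 under both treatments, against 0.03 (DHT) and 0.02 (vehicle) over all tested genes.

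REST was higher in every PXN siRNA library than in any non-specific one. It had 107, 95.5 and 98.2 CPM with PXN siRNA and DHT, against 82.9, 83.0 and 84.9 CPM with non-specific siRNA and DHT. It had 110, 99.8 and 106 CPM with PXN siRNA and vehicle, against 88.7, 81.6 and 89.8 CPM with non-specific siRNA and vehicle. The groups did not overlap in either pair. How many of all tested genes separate in this way was not counted, so separation is a description only, here and for the genes below. REST rose by a log2 fold change of 0.26 ± 0.06 under DHT (SE, 95% interval 0.13 to 0.39, 1.20-fold, edgeR adjusted p = 0.00250). Under vehicle it rose by 0.28 ± 0.06 (0.15 to 0.41, 1.21-fold, edgeR adjusted p = 0.00166). The rise is modest for this data set: 33.9% of all tested genes rose at least as far under DHT and 31.5% under vehicle. In RNA from whole cultures, fewer cells of a type and less RNA per cell cannot be told apart.

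REST spans chr4:56907876-56966678 on the plus strand (GENCODE 29, GRCh38). Its end overlaps NOA1, a mitochondrial GTPase gene on the opposite strand, by 3309 bases. NOA1 moved the other way, with log2 fold changes of -0.20 ± 0.06 under DHT (edgeR adjusted p = 0.0103) and -0.23 ± 0.06 under vehicle (edgeR adjusted p = 0.00401). Upper-quartile scaling ended both calls (-0.0931, adjusted p = 0.174, under DHT and -0.13, adjusted p = 0.0646, under vehicle), and leaving out replicate 3 of PXN siRNA with DHT ended the call under DHT (adjusted p = 0.0517). The kit keeps strand, but the sources used here do not state whether the counting used it.

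ENO2, neuron-specific enolase, a glycolytic enzyme of neurons and neuroendocrine cells, differed most. It had 61.1, 51.7 and 67.1 CPM with PXN siRNA and DHT, against 38.0, 23.5 and 30.5 CPM with non-specific siRNA and DHT. It had 61.7, 53.5 and 67.2 CPM with PXN siRNA and vehicle, against 35.0, 31.9 and 34.7 CPM with non-specific siRNA and vehicle. The lowest PXN siRNA library lay well above the highest non-specific one in both pairs. ENO2 rose by a log2 fold change of 0.97 ± 0.14 under DHT (0.67 to 1.27, 1.96-fold, edgeR adjusted p = 5.08e-05) and by 0.85 ± 0.14 under vehicle (0.55 to 1.14, 1.80-fold, edgeR adjusted p = 0.000167). Among all tested genes 10.2% rose at least as far under DHT and 11.5% under vehicle. ENO2 lies at chr12:6913745-6923698 and shares 499 bases with LRRC23 on the same strand, a gene with 12.6 ± 0.62 CPM with PXN siRNA and DHT and 10.4 ± 0.45 CPM with non-specific siRNA and DHT, and 12.9 ± 0.81 CPM with PXN siRNA and vehicle and 10.1 ± 0.50 CPM with non-specific siRNA and vehicle. LRRC23 was itself higher, by 0.28 ± 0.08 under DHT (edgeR adjusted p = 0.0119, or 0.0674 without the filter on low counts) and by 0.36 ± 0.08 under vehicle (edgeR adjusted p = 0.00232), and the part of shared reads was not tested.

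SYP encodes synaptophysin, a membrane protein of small synaptic vesicles, and it did not move with ENO2. It had 1.31, 1.27 and 1.69 CPM with PXN siRNA and DHT, from 46 to 61 counts, against 2.33, 2.66 and 1.90 CPM with non-specific siRNA and DHT, from 64 to 96 counts. It had 1.80, 1.24 and 1.15 CPM with PXN siRNA and vehicle, against 2.07, 2.73 and 1.52 CPM with non-specific siRNA and vehicle. The groups were separate under DHT and overlapped under vehicle. SYP fell by a log2 fold change of -0.69 ± 0.24 under DHT (-1.20 to -0.18, edgeR adjusted p = 0.0258). Under vehicle the value was -0.60 ± 0.24 (-1.11 to -0.08, edgeR adjusted p = 0.0509), past the threshold at 0.0311 with the replicate number as a block. SYP was not called under vehicle in 14 of 20 alternatives, over all of which its adjusted p ran from 0.0179 to 0.214. Scaling by the upper quartile ended the call under DHT (log2 fold change -0.59, adjusted p = 0.0567), as did leaving out replicate 1 or 2 of either siRNA with DHT (adjusted p 0.0524 to 0.0832).

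DLL3 is an unusual Notch ligand that acts inside the producing cell as an inhibitor of the pathway and is a surface target in neuroendocrine carcinoma. It had 3.12, 4.46 and 4.09 CPM with PXN siRNA and DHT, from 114 to 161 counts, against 5.76, 5.98 and 5.79 CPM with non-specific siRNA and DHT, from 195 to 216 counts. It had 2.15, 4.63 and 3.48 CPM with PXN siRNA and vehicle, against 4.52, 5.57 and 5.61 CPM with non-specific siRNA and vehicle. The groups were separate under DHT, and under vehicle the highest PXN siRNA library lay just above the lowest non-specific one. DLL3 fell by a log2 fold change of -0.59 ± 0.21 under DHT (-1.03 to -0.14, edgeR adjusted p = 0.0287) and of -0.61 ± 0.21 under vehicle (-1.07 to -0.16, edgeR adjusted p = 0.0258). Upper-quartile scaling ended both calls (-0.49, adjusted p = 0.0644, under DHT and -0.52, adjusted p = 0.0553, under vehicle). Without replicate 1 of PXN siRNA with DHT the value under DHT was -0.45 (adjusted p = 0.117), and without replicate 1 of PXN siRNA with vehicle the value under vehicle was -0.37 (adjusted p = 0.106). Leaving out replicate 2 or 3 of non-specific siRNA or replicate 3 of PXN siRNA, of the treatment concerned, also ended the call (adjusted p 0.0526 to 0.0798).

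**Figure D2:**
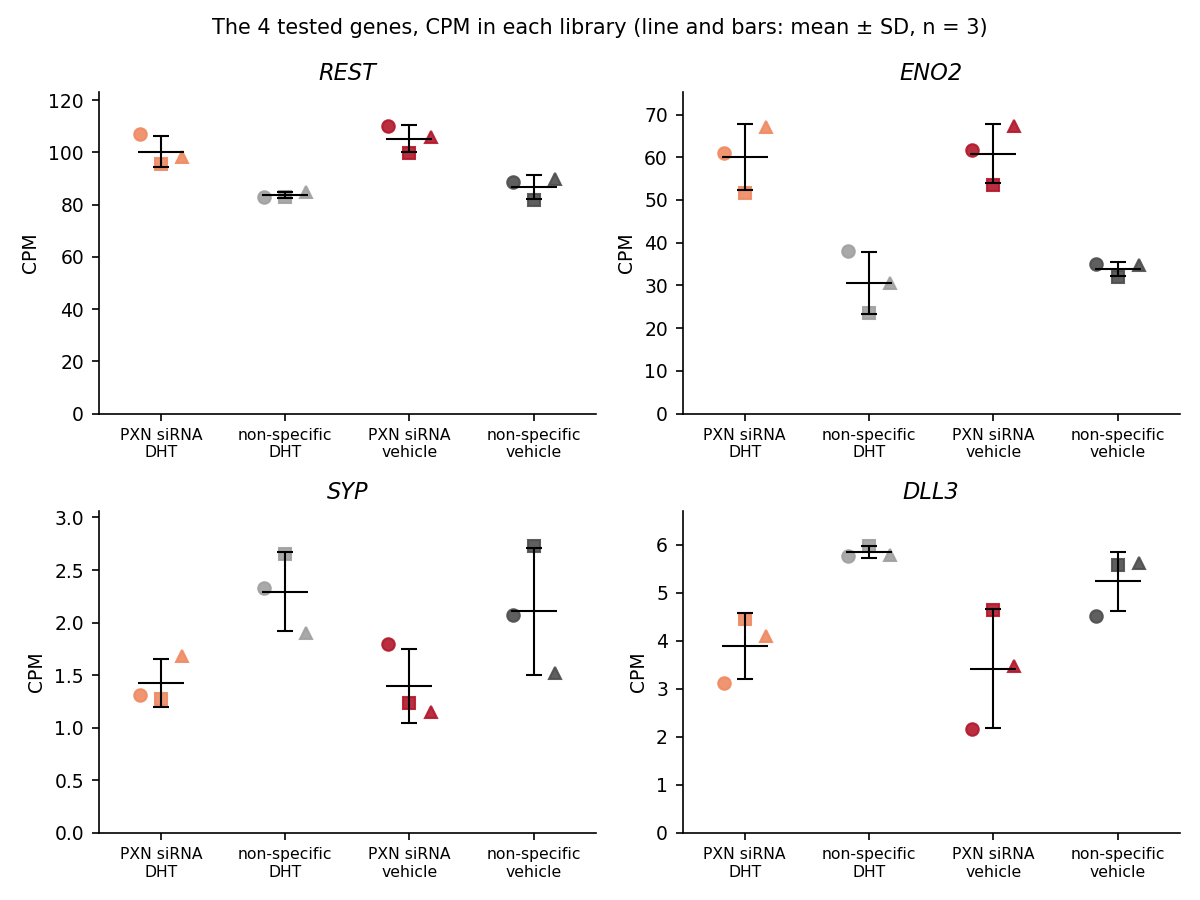
CPM of REST, ENO2, SYP and DLL3 in each library, by group (circles, squares and triangles are replicates 1, 2 and 3; lines and bars are means with SD; axes start at 0). The PXN siRNA libraries lie above the non-specific ones for REST and ENO2, and below them for SYP and DLL3 under DHT, with an overlap for SYP and DLL3 under vehicle.

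None of the 4 genes was called for DHT against vehicle, with either siRNA. With non-specific siRNA 4.87% of all tested genes passed for DHT against vehicle, with PXN siRNA 0.184%, and 0% for the difference between those 2 responses (778 genes at an unadjusted p under 0.05). With the replicate number as a block, the calls with non-specific siRNA numbered 2236 in place of 900, and those with PXN siRNA 346 in place of 34. None of the 4 genes had an unadjusted p under 0.05 in these 3 contrasts, and DESeq2 and limma-voom called none of them either. With non-specific siRNA the log2 fold changes for DHT were -0.05 for REST (95% interval -0.18 to 0.08, edgeR adjusted p = 0.760), -0.14 for ENO2 (-0.45 to 0.16, edgeR adjusted p = 0.699), 0.12 for SYP (-0.37 to 0.61, edgeR adjusted p = 0.869) and 0.16 for DLL3 (-0.28 to 0.60, edgeR adjusted p = 0.787). The DLL3 libraries with DHT all lay above those with vehicle, by a margin within the fitted error. With PXN siRNA the values were -0.07 for REST (-0.20 to 0.06), -0.02 for ENO2 (-0.31 to 0.27), 0.03 for SYP (-0.50 to 0.57) and 0.18 for DLL3 (-0.28 to 0.65), with edgeR adjusted p of 0.889 or more. The response to DHT with PXN siRNA minus that with non-specific siRNA was -0.02 for REST (-0.20 to 0.17), 0.12 for ENO2 (-0.30 to 0.55), -0.09 for SYP (-0.82 to 0.64) and 0.03 for DLL3 (-0.61 to 0.66). The intervals were narrowest for REST and widest for SYP.

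**Figure D3:**
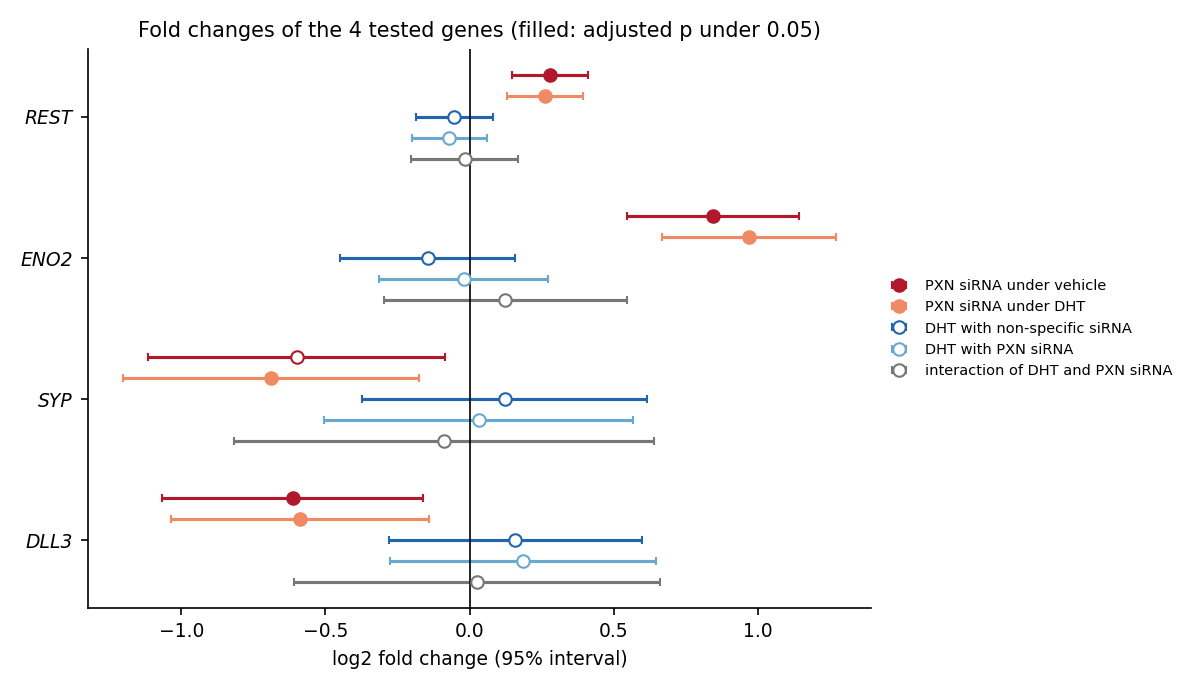
Log2 fold changes with 95% intervals of REST, ENO2, SYP and DLL3 in the 5 contrasts (edgeR; filled points passed an adjusted p of 0.05). The PXN siRNA intervals lie above 0 for REST and ENO2 and below 0 for SYP and DLL3, and all intervals for DHT and for the interaction cross 0.

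The relatives of the markers differed among themselves in direction: ENO1 and DLL1 moved opposite to ENO2 and DLL3, and ENO3 and SYPL1 the same way as ENO2 and, under DHT, SYP. ENO1, the ubiquitous enolase, had 143 ± 9.9 CPM per kb with PXN siRNA and DHT against 263 ± 16 CPM per kb with non-specific siRNA and DHT (SD, n = 3 each). It fell by 0.88 ± 0.08 on the log2 scale under DHT (edgeR adjusted p = 1.31e-06) and by 0.86 ± 0.08 under vehicle (edgeR adjusted p = 1.63e-06), while ENO2 rose. ENO3, the muscle enolase, rose by 0.55 ± 0.13 under DHT and by 0.45 ± 0.13 under vehicle (edgeR adjusted p 0.00213 and 0.00830). In every group ENO1 was by far the most abundant of the 3 enolases per kilobase. Of 14 glycolytic genes 12 were lower and 0 higher under either treatment, with a median log2 fold change of -0.62 in both, PKM (pyruvate kinase), GAPDH and TPI1 among them with -0.85, -0.78 and -0.71 under vehicle. Of all tested genes 26.7% were lower and 25.0% higher under DHT, and 26.3% and 23.9% under vehicle.

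SYPL1, a synaptophysin relative of non-neuronal vesicles, had 24.6 ± 2.6 CPM per kb with PXN siRNA and DHT against 66.9 ± 2.4 with non-specific siRNA and DHT. It fell by 1.44 ± 0.11 on the log2 scale under DHT (edgeR adjusted p = 2.15e-07) and by 1.40 ± 0.11 under vehicle (edgeR adjusted p = 2.54e-07). SYPL1 and SYP were thus both lower under DHT, at very different levels. DLL1, a canonical activating Notch ligand, rose by 0.41 ± 0.11 under DHT and by 0.37 ± 0.11 under vehicle (edgeR adjusted p 0.00610 and 0.0121), opposite in sign to DLL3. NCAM2, a homologue of NCAM1, had 102 ± 7.4 CPM per kb with PXN siRNA and DHT and 108 ± 13 with non-specific siRNA and DHT, with no call, whereas NCAM1 had 0.0130 ± 0.0057 and 0.0157 ± 0.0021 in those groups. Of 7 relatives tested, 2 were higher and 2 lower under DHT, and 3 were higher and 2 lower under vehicle, the additional one being the granin gene SCG2. The shares over all tested genes were 25.0% higher and 26.7% lower under DHT, and 23.9% and 26.3% under vehicle.

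**Figure D4:**
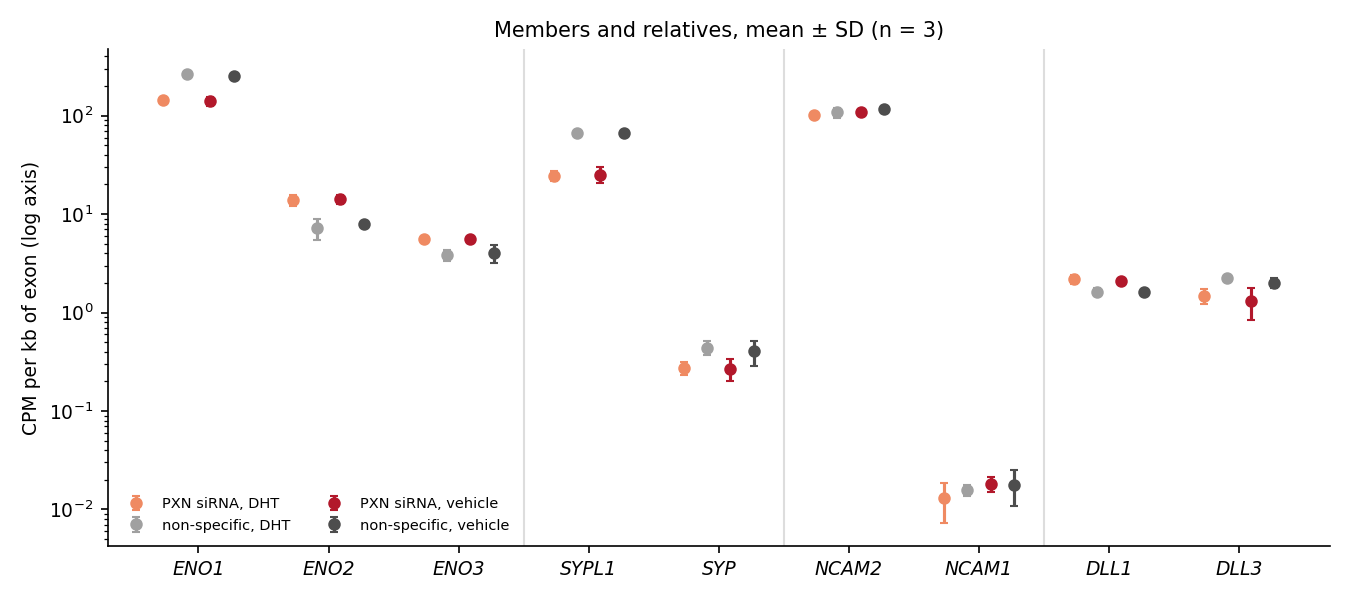
Mean CPM per kilobase of exon (log axis, with SD, 3 libraries per group) of ENO2, SYP, NCAM1, DLL3 and their relatives in the 4 groups. ENO1, SYPL1 and NCAM2 lie well above ENO2, SYP and NCAM1, and ENO1 and ENO2 move in opposite directions with PXN siRNA.

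Transcripts of the partners of REST moved in both directions. Of 22 partners and regulators of REST 21 were tested, and 7 were higher and 8 lower under DHT (median log2 fold change -0.04), and 6 higher and 8 lower under vehicle (median 0.01). Over all tested genes the shares were 25.0% higher and 26.7% lower under DHT, and 23.9% and 26.3% under vehicle. CDYL, a co-repressor that links REST to histone methylation, rose by 1.22 ± 0.17 under DHT and 1.32 ± 0.17 under vehicle (edgeR adjusted p 3.01e-05 and 1.63e-05). KDM1A, the demethylase, fell by 0.44 ± 0.06 under DHT and by 0.47 ± 0.06 under vehicle (edgeR adjusted p 5.85e-05 and 3.49e-05). HMG20B, a subunit of the complex that holds KDM1A, fell by 0.71 ± 0.10 under DHT and by 0.79 ± 0.11 under vehicle (edgeR adjusted p 5.92e-05 and 2.64e-05). SRRM4, the splicing factor that makes the truncated neuronal form of REST, was not among the genes tested, and its counts summed over 3 libraries were 5 with PXN siRNA and DHT, 21 with non-specific siRNA and DHT, 6 with PXN siRNA and vehicle and 5 with non-specific siRNA and vehicle. Gene-level counts do not separate the forms of REST.

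Of 28 genes known as REST targets only 13 passed the low-count filter, so the counts that follow leave out the silent ones. Under DHT 6 were higher and 2 lower (median 0.59), and under vehicle 5 were higher and 2 lower (median 0.46). Of all tested genes 25.0% were higher and 26.7% lower under DHT, and 23.9% and 26.3% under vehicle. All 28 summed to 396 to 480 CPM with PXN siRNA and DHT against 447 to 638 CPM with non-specific siRNA and DHT. With vehicle the sums were 392 to 522 CPM against 506 to 621 CPM. These ranges overlap, and SYT4, which was lower, held most of each sum, with group means of 319 to 513 CPM. TUBB3, the neuronal beta-tubulin, had 73.9 ± 4.5 CPM with PXN siRNA and DHT against 25.4 ± 2.9 CPM with non-specific siRNA and DHT, and 65.0 ± 11 CPM with PXN siRNA and vehicle against 23.9 ± 4.7 CPM with non-specific siRNA and vehicle. It rose by 1.54 ± 0.14 under DHT and 1.45 ± 0.14 under vehicle (edgeR adjusted p 6.80e-07 and 1.22e-06). NEFL, the neurofilament light chain, rose by 1.35 ± 0.17 and 1.22 ± 0.17, GAD1, which makes the transmitter GABA, by 2.16 ± 0.34 and 2.14 ± 0.34, and SYT1, the calcium sensor of vesicle release, by 2.34 ± 0.33 and 1.54 ± 0.27 (DHT, then vehicle, edgeR adjusted p at most 0.000307). GAD1 and SYT1 stayed under 2 CPM in every group mean. SYT1 had 28 to 49 counts with PXN siRNA and DHT against only 7 to 9 with non-specific siRNA and DHT. With vehicle SYT1 had 43 to 77 counts with PXN siRNA against 19 to 22 with non-specific siRNA. GAD1 had 38 to 56 counts with PXN siRNA and DHT against 7 to 16 with non-specific siRNA and DHT, and 33 to 59 with PXN siRNA and vehicle against 7 to 13 with non-specific siRNA and vehicle. It reached 10 counts in all libraries of the groups where it is high and not in the others, so its place in the counts of this list is no support. The fall was in SYT4 under both treatments, in UNC13A under DHT (a call lost in 11 alternatives) and in STMN3 under vehicle, genes named after their values were seen. The call of SYT4 under DHT was lost without replicate 1 of non-specific siRNA (adjusted p = 0.0681) or replicate 3 of PXN siRNA with DHT (adjusted p = 0.0643), and that of STMN3 without replicate 1 of non-specific siRNA with vehicle (adjusted p = 0.0670). Genes of low level were higher on the whole after PXN knockdown: tested genes under 1 CPM had a median log2 fold change of 0.37 under DHT and 0.32 under vehicle, and those from 1 to 10 CPM one of 0.18 and 0.15.

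Granule genes also diverged from one another. Of 20 listed, 11 were tested, with 4 higher and 1 lower under DHT (median 0.28) and 3 higher and 1 lower under vehicle (median 0.17). Among all tested genes 25.0% were higher and 26.7% lower under DHT, and 23.9% and 26.3% under vehicle. PCSK1N, an inhibitor of the prohormone convertase, had 13.8 ± 4.0 CPM with PXN siRNA and DHT against 5.28 ± 0.79 CPM with non-specific siRNA and DHT, and rose by 1.39 ± 0.21 (edgeR adjusted p = 7.39e-05), or by 0.81 ± 0.22 under vehicle (edgeR adjusted p = 0.00609). DDC, the decarboxylase that makes dopamine and serotonin, rose by 0.89 ± 0.15 under DHT and by 0.56 ± 0.15 under vehicle (edgeR adjusted p 0.000173 and 0.00559). RAB3A, a GTPase of vesicle release, fell by 0.48 ± 0.08 and 0.55 ± 0.08 (DHT, then vehicle, edgeR adjusted p 0.000152 and 5.25e-05). SCG2, the granin secretogranin II, averaged 0.257 CPM with PXN siRNA and DHT and 0.0963 CPM with non-specific siRNA and DHT (edgeR adjusted p = 0.0677), and had a log2 fold change of 1.88 ± 0.60 under vehicle (edgeR adjusted p = 0.0169), a call lost without replicate 3 of non-specific siRNA with vehicle (1.68, adjusted p = 0.0620). SCG2 reached 10 counts in all libraries of only 1 group, PXN siRNA with vehicle (10 to 13 counts, against 2 to 4 counts with non-specific siRNA and vehicle), so it entered the test through a group where it is high, and its place in the counts is no support. PAM and SV2A, named after their values were seen, were the other genes higher under DHT, with calls lost in 7 and 13 alternatives. SV2A had 7 to 16 counts with PXN siRNA and DHT and 4 to 6 with non-specific siRNA and DHT. Of these groups only the one where it is high reached 10 counts in any library, so its place in the counts is no support.

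Transcription factors and regulators of neuroendocrine fate were mostly untested. Of 21 listed 7 were tested, and 1 was higher and 3 lower under DHT (median -0.36), and 0 were higher and 4 lower under vehicle (median -0.24). Over all tested genes 25.0% were higher and 26.7% lower under DHT, and 23.9% and 26.3% under vehicle. EZH2, the histone methyltransferase linked to neuroendocrine prostate cancer, had 19.5 ± 1.4 CPM with PXN siRNA and DHT against 30.9 ± 2.6 CPM with non-specific siRNA and DHT. It fell by 0.67 ± 0.10 under DHT and by 0.80 ± 0.10 under vehicle (edgeR adjusted p 5.18e-05 and 1.07e-05). HES6, a Notch-antagonising factor, fell by 1.20 ± 0.22 under DHT and by 1.07 ± 0.23 under vehicle (edgeR adjusted p 0.000377 and 0.00161). ONECUT2 fell by 0.43 ± 0.09 under DHT (edgeR adjusted p = 0.00139) and by 0.24 ± 0.09 under vehicle (edgeR adjusted p = 0.0446), and the call under vehicle was lost in 14 of 20 alternatives. PEG10, a retrotransposon-derived gene, fell under vehicle by 0.69 ± 0.24 (edgeR adjusted p = 0.0261), a call lost in 4 alternatives. MYT1, named after its value was seen, rose under DHT by 0.32 ± 0.12 (edgeR adjusted p = 0.0413). The call of MYT1 was lost in several alternatives, over which its adjusted p ran from 0.000712 to 0.188.

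The Notch pathway, in which DLL3 acts, was split as well. Of 23 genes 19 were tested, with 7 higher and 4 lower under DHT (median -0.03) and 6 higher and 4 lower under vehicle (median 0.10). All tested genes were higher in 25.0% and lower in 26.7% under DHT, and in 23.9% and 26.3% under vehicle. RBPJ, the DNA-binding factor of the pathway, had 60.5 ± 2.9 CPM with PXN siRNA and DHT against 125 ± 6.9 CPM with non-specific siRNA and DHT, and 61.2 ± 3.0 CPM with PXN siRNA and vehicle against 121 ± 9.4 CPM with non-specific siRNA and vehicle. It fell by 1.04 ± 0.07 under DHT and by 0.98 ± 0.07 under vehicle (edgeR adjusted p 1.17e-07 and 1.27e-07). NRARP, a feedback inhibitor, fell by 0.66 ± 0.13 and 0.77 ± 0.14, while the co-activator MAML2 rose by 1.34 ± 0.26 and 2.04 ± 0.30 and the sheddase ADAM17 by 0.40 ± 0.07 and 0.56 ± 0.07 (DHT, then vehicle, edgeR adjusted p at most 0.000779).

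**Figure D5:**
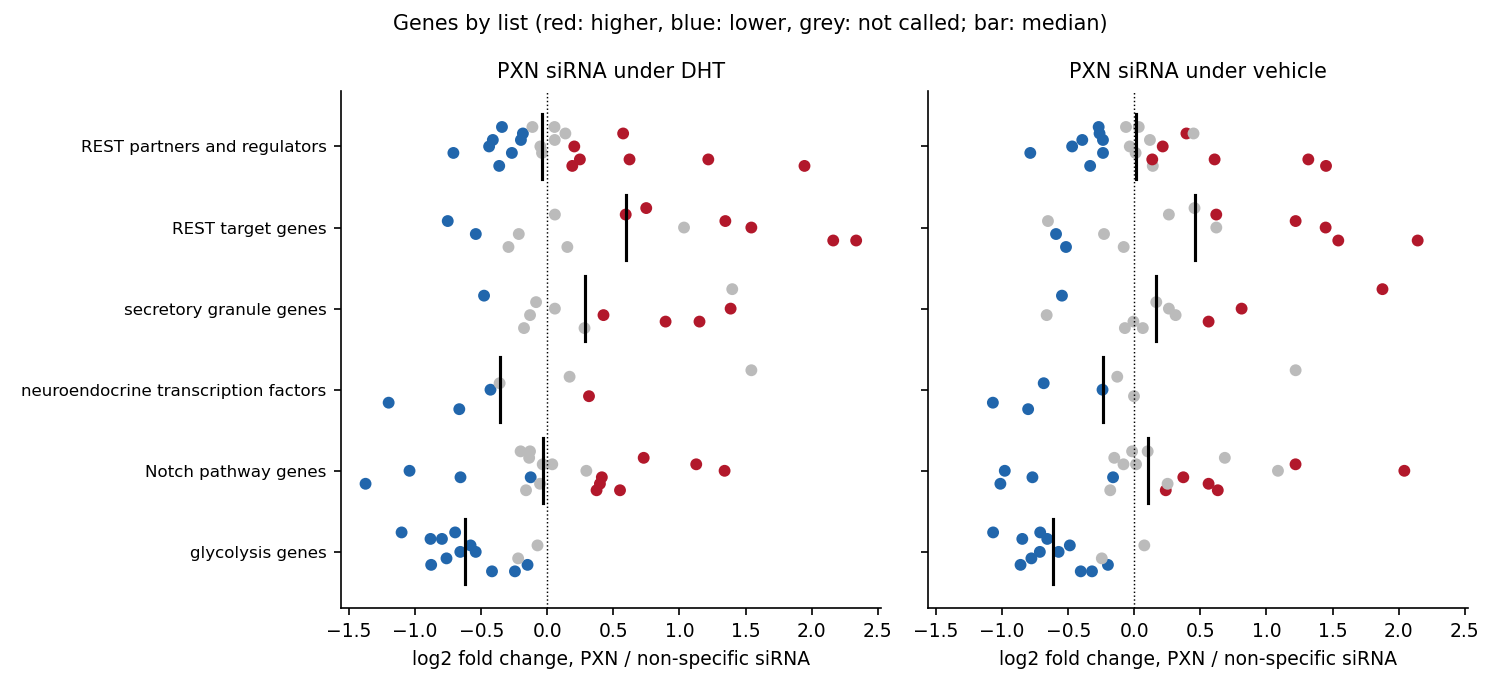
Log2 fold changes of the tested genes of each list for PXN siRNA under DHT and under vehicle (points; colour marks calls at an adjusted p of 0.05, and bars are medians). Most lists hold genes on both sides of 0, and the glycolysis genes lie mostly below it, with a median of -0.62.

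Among the listed genes DHT alone called few. With non-specific siRNA HES6 averaged 60.6 ± 16 CPM with DHT and 23.7 ± 2.2 CPM with vehicle and rose by 1.35 ± 0.22 (edgeR adjusted p = 0.00254). HK2, a hexokinase, rose by 0.55 ± 0.07 (edgeR adjusted p = 0.000584). PHF21A, a reader in the demethylase complex, fell by 0.26 ± 0.07 (edgeR adjusted p = 0.0406), SYT1 by 1.36 ± 0.37 (edgeR adjusted p = 0.0492) and DDC by 0.61 ± 0.15 (edgeR adjusted p = 0.0294), and these calls were lost in 10, 13 and 5 of the alternatives. With PXN siRNA no gene of the REST, granule, Notch or transcription factor lists was called for DHT. HES6 had a value of 1.22 ± 0.23 there (edgeR adjusted p = 0.0575, with 1.14e-06 to 0.334 over the alternatives) and PCSK1N one of 0.82 ± 0.20 (edgeR adjusted p = 0.183, with 0.00252 to 0.985). In 6 of 20 alternatives 1 transcription factor was called and in 3 of 20 1 granule gene, among them DESeq2, the replicate block and the fit without the filter on low counts. The difference between the 2 responses was called for none of these genes.

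Genes whose log2 CPM followed the members most closely over the 12 libraries were ranked by Pearson's r among 18467 others, as a description. REST was most like ZMYM5 (0.990), CHMP2B (0.989) and ZNF644 (0.988), and ENO2 most like DNAJC6 (0.990), KLB (0.983) and IRAK2 (0.980). DLL3 was most like PRMT7 (0.967), LINC01604 (0.966) and ZNF544 (0.962), and SYP, with the fewest counts, most like UGT1A1 (0.908), ADM2 (0.900) and POFUT2 (0.890). The 12 points share 4 group means, so that genes set apart by the siRNA in like ratio come out as alike. ZMYM5 had 15.8 to 19.6 CPM with PXN siRNA and DHT against 11.4 to 12.8 CPM with non-specific siRNA and DHT, apart by siRNA as REST was. DNAJC6 had 9.36 to 11.1 CPM against 4.18 to 6.44 CPM in those groups, likewise without overlap.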

How the data were processed

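RNA-seq of 12 LNCaP libraries was used, 3 in each of 4 groups assigned from the labels. The deposited values are raw counts for each gene symbol. The submitters' processing notes name featureCounts for the counting, along with Trimmomatic 0.32, STAR 2.4.2a, Subread 1.5.0p3 and GRCh38. Libraries were made with a TruSeq Stranded mRNA kit, per the labels' protocols. How the authors set strand, annotation and multiply mapped reads in the counting was not given in the sources used here, so values of overlapping and paralogous genes are less certain. No 2 replicates agreed within sampling noise (chi-square per gene 6.51 to 27.6 over 12 pairs).

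Counts were scaled by TMM, filtered with filterByExpr (17669 symbols left out, 18468 tested) and fitted over all 4 groups with the quasi-likelihood test of edgeR 4.0.16 in R 4.3.3. The p-values were adjusted by Benjamini-Hochberg over all tested genes, with a threshold of 0.05. The steps were tested on simulated data in which few genes changed, upward and downward alike. That run cannot check the scaling for data in which about as many genes were called as not. Exon lengths and positions are from GENCODE 29. DESeq2 1.42.0, limma-voom (limma 3.58.1), other scalings and filters, a fit of only the groups compared, a replicate block and each library left out were tried.

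The main p-values are from a fit without a replicate block, as the labels do not say what a replicate number marks. Deviations of same-numbered libraries from the group means correlated over 0.1 in every pair of the 4 contrasts between 2 groups (0.125 to 0.503). This did not hold in all 18 pairs of the interaction (lowest 0.000479). The main tests thus leave out a pairing seen in the data, and the replicate block is given as an alternative. The members and lists were chosen with earlier results of these data known. All listed members are named, with up to 4 called genes of each list by smallest p for PXN siRNA under vehicle and up to 4 for DHT under non-specific siRNA, plus the 3 genes most like each tested member. INSM1 was not analysed here, and 1 gene that the rule names is not reported here.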

Additional observations from a re-analysis of the deposited data

How the results depend on the processing

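REST and ENO2 kept their direction and their call for PXN siRNA under both treatments in all 20 alternatives, with log2 fold changes of 0.21 to 0.36 (DHT) and 0.22 to 0.38 (vehicle) for REST and of 0.79 to 1.15 and 0.77 to 0.95 for ENO2. The number of the 4 tested members called under DHT was 4, and 2 with upper-quartile scaling or an adjusted p of 0.01, and 2 to 4 when single libraries were left out (2 without replicate 2 of non-specific siRNA or replicate 1 of PXN siRNA, both with DHT). Under vehicle it was 3, with 2 to 4 over the alternatives. With the replicate block 4 were called in both, SYP under vehicle at -0.59 (adjusted p = 0.0311), and the block changed no other member's call. Without the filter on low counts 4 were also called under vehicle. Over all genes the replicate block raised the calls for DHT with non-specific siRNA to 2236, against 900, and with PXN siRNA to 346, against 34. For the interaction 0 genes were called by edgeR and by limma-voom, with 778 at an unadjusted p under 0.05, against 58 with the replicate block, 37 with DESeq2 and 35 without the filter. DESeq2 called 143 genes and edgeR without the filter 188 for DHT with PXN siRNA. Upper-quartile scaling moved the share of called genes that were higher to 60.7% under DHT and 60.2% under vehicle, against 48.3% and 47.7%, and the median of all genes to 0.13 and 0.12.

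Leaving out single libraries reversed only values that were not called. For DHT with non-specific siRNA these ranges were -0.33 to 0.0229 for ENO2 and -0.0651 to 0.36 for SYP. For DHT with PXN siRNA they were -0.11 to 0.0747 for ENO2, -0.11 to 0.25 for SYP and -0.0592 to 0.46 for DLL3. For the interaction they were -0.0660 to 0.0261 for REST, -0.0425 to 0.31 for ENO2, -0.32 to 0.13 for SYP and -0.22 to 0.30 for DLL3. The cause was not tested.

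Counts of list genes were recomputed under the same alternatives, a step chosen after seeing the data. Of these, 1660 equalled the main count or stayed within 1.5 times it, 52 rose and 70 fell beyond it. The 1660 include counts of 0 that stayed 0. Most main counts for DHT and for the interaction were 0, so this total is no measure of stability. REST targets higher numbered 4 to 7 under DHT and 3 to 6 under vehicle, and those lower 0 to 3 and 1 to 3. Granule genes higher numbered 2 to 4 under both, and transcription factors lower 3 under DHT and 2 to 4 under vehicle. SYP had 44 to 101 counts per library and DLL3 79 to 216, and how far depth limits their calls was not tested.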
